A study of Mus musculus with 2 samples.

Results

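The miR-15/16 and miR-103/miR-107 seed group held 8 mature miRNAs of mouse brain. These were miR-15a, miR-15b, miR-16, miR-195, miR-497 and miR-322, which share the miR-15/16 seed, and miR-103 and miR-107, whose seed is the same run of bases moved by 1. They were 8 of the 405 known miRNAs without a star, a mark once given to the less abundant strand of a hairpin. Members were chosen by name and not by their values. Each was tied to the sequence tag, a distinct small RNA sequence with its read count, that held its listed pair of counts. This pair belonged to a single tag for 6 members, while for miR-195 and miR-322 the tag equal to the RefSeq mature sequence was taken. Every other tag with the same first 18 bases was then added to the member it matched over the longest stretch. This gave 533 tags among the 788155 in the data, and the counts are called same-start reads below.

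The study asked how small RNAs of the brain differ between young and aged mice. Whole brains came from male mice of the inbred C57BL/6J strain, aged 5 months in the young group and 24 to 25 months in the old group. No genotype or treatment was applied to either group. The cDNA libraries of 2 mice were combined at each age, so 1 library stood for each age and the animals within it could not be separated. The young library held 4523267 reads and the old library 6658732. Same-start reads of known miRNAs made up 70.2% of the young library and 73.6% of the old. Tags with undetermined bases held 4.57% and 1.07% of the reads. They were left out of the same-start counts, but their reads stayed in the total reads. There was no replicate, so every interval and p-value below covers the counting of reads alone, reads copied by PCR are not independent molecules, and each test compares the 2 libraries and not the ages.

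A miRNA is cut from a hairpin precursor and guides Argonaute proteins to messenger RNAs, mainly through its seed, bases 2 to 8 from the 5′ end. Members of the miR-15/16 family are known for repressing regulators of the cell cycle and of apoptosis, and miR-15a and miR-16 were early examples of miRNAs lost in leukemia. miR-103 and miR-107 lie in introns of pantothenate kinase genes, which act in coenzyme A synthesis, and are known for effects on insulin sensitivity and on Dicer. The 8 mature sequences are printed in full because the seed defines the group and the bases after it separate the members. Each counted tag equalled the RefSeq mature sequence (GRCm38.p6), and the seed is in capitals.
mmu-miR-15a: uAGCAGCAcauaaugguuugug
mmu-miR-15b: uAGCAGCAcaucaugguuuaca
mmu-miR-16: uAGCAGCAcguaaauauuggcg
mmu-miR-195: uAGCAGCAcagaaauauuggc
mmu-miR-497: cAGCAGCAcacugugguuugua
mmu-miR-322: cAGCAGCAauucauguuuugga
mmu-miR-103: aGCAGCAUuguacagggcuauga
mmu-miR-107: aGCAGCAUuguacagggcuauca

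The 6 miRNAs with the seed AGCAGCA began with U or C, and miR-103 and miR-107, with the seed GCAGCAU, began with A. Among the first group miR-16 and miR-195 were the closest pair, with 19 of 21 compared bases identical and the substitutions G10A and U11G, counted from the 5′ end with the base of miR-16 first. miR-15a and miR-15b had 18 of 22 bases in common. miR-103 and miR-107 were identical over the first 21 bases and differed by G22C, with the base of miR-103 first. Tags that stop before base 22 therefore cannot be given to either one, and they were counted only in the sum of both.

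The counted tags were placed by perfect match in NCBIM37 (mm9), the build of the files. miR-15a lies at chr14:62250912-62250933 and a copy of miR-16 at chr14:62250773-62250794, both on the minus strand in an intron of the long non-coding RNA Dleu2. miR-15b lies at chr3:68813697-68813718 and the other copy of miR-16 at chr3:68813840-68813861, both on the plus strand in an intron of Smc4, which encodes a condensin subunit. The mature miR-16 of both loci is the same sequence, so its reads cannot be divided between them. miR-497 (chr11:70048232-70048253) and miR-195 (chr11:70048564-70048584) lie next to each other on the plus strand outside annotated genes. miR-322 (chrX:50407483-50407504) lies on the minus strand, also outside annotated genes. miR-103 has copies at chr11:35595949-35595971 in Pank3 and at chr2:131113839-131113861 in Pank2, and miR-107 lies at chr19:34895190-34895212 on the minus strand in Pank1, each in an intron and on the strand of its host gene.

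Normalized counts are given as RPM, same-start reads per 1000000 total reads. miR-103 was the most abundant member in both libraries, with 5444 RPM in the young library and 4367 in the old. miR-107 followed with 1595 and 1579. Their order leaves out the tags that fit both, which added 4770 and 4428 RPM to the sum. The miR-15/16 seed members lay far lower. miR-16 stood at 269 and 433 RPM, miR-497 at 261 and 146, miR-15a at 103.2 and 129, and miR-195 at 63.4 and 101. miR-15b, at 19.5 and 23.3, and miR-322, at 10.4 and 10.1, were the least abundant. In the young library the order of levels ran miR-103, miR-107, miR-16, miR-497, miR-15a, miR-195, miR-15b and miR-322, and it was the same in the old library. Neighbours in this order differed beyond their counting error, except miR-16 and miR-497 in the young library, whose log2 levels differed by 0.04 (95% counting interval -0.07 to 0.16). In the old library miR-16 stood 1.56 above miR-497 on the log2 scale (1.46 to 1.67), while miR-497 and miR-15a had drawn close, with a difference of 0.18 (0.05 to 0.32).

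**Figure D1:**
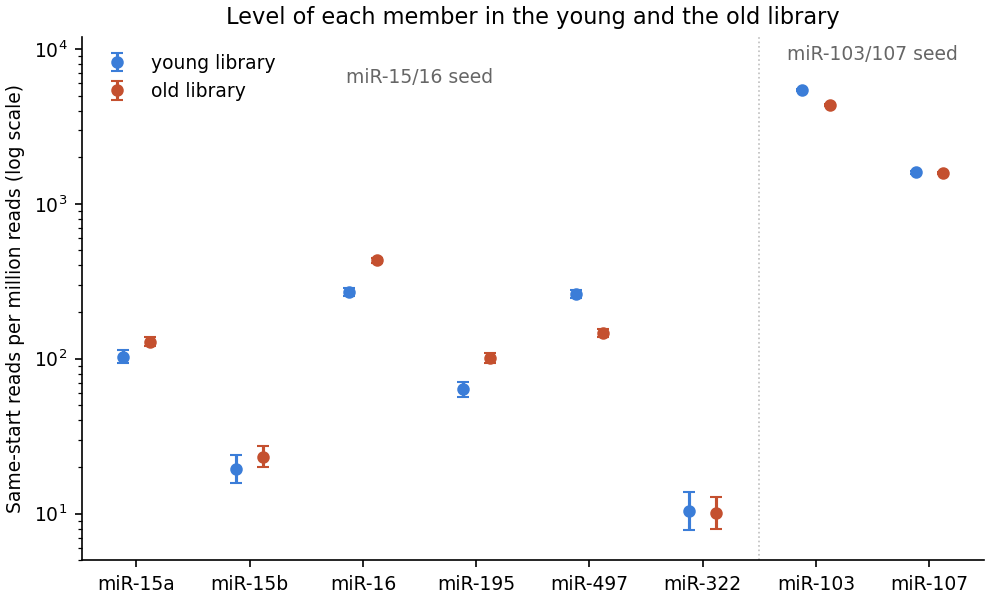
RPM (same-start reads per 1000000 total reads) on a log axis for the 8 members in the young and the old library, with bars for the 95% counting interval of each library. The lowest value of miR-103 and miR-107, 1579, lies above the highest of the miR-15/16 seed members, 433, with miR-16 higher and miR-497 lower in the old library.

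Members of the miR-15/16 seed group differed in direction between the libraries. miR-16 had 1215 reads in the young library and 2882 in the old, a normalized count 1.61-fold higher in the old library (log2 ratio 0.69, 95% counting interval 0.59 to 0.78). miR-195, which differs from it at 2 compared bases, had 287 and 675 reads and was 1.60-fold higher (log2 ratio 0.68, 0.48 to 0.88). Its mature tag alone, with 9 and 17 reads, had a log2 ratio of 0.36 (-0.81 to 1.53). miR-15a had 467 and 859 reads and was 1.25-fold higher (log2 ratio 0.32, 0.16 to 0.48). miR-497 went the other way, with 1180 and 975 reads and a normalized count 1.78-fold higher in the young library (log2 ratio -0.83, -0.96 to -0.71). miR-15b, with 88 and 155 reads, had a log2 ratio of 0.26 (-0.12 to 0.64), and miR-322, with 47 and 67 reads, one of -0.05 (-0.58 to 0.49). For miR-15b and miR-322 a difference was not detectable at this number of reads when scaled to total reads. In whole brain, fewer cells of a type and less RNA per cell cannot be told apart.

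With the MA-plot-based random sampling model, adjusted over the 274 known miRNAs with at least 10 same-start reads in a library, the adjusted p was 1.48e-48 for miR-16, 5.22e-12 for miR-195 and 0.000109 for miR-15a. The same model gave adjusted p-values of 5.12e-41 for miR-497 and 4.22e-146 for miR-103. The adjusted p was 0.197 for miR-15b, 0.879 for miR-322 and 0.536 for miR-107 in this model. Thus 3 of the 8 members were called higher in the old library, where 9.85% of all known miRNAs tested were, and 2 of 8 were called lower, where 66.1% were. At least 1.5-fold higher were 2 members (miR-16 and miR-195) against 6.93% of all tested, and at least 1.5-fold lower was 1 (miR-497) against 53.6%. A higher normalized count in the old library, of whatever size, was found for 4 of 8 members and for 20.1% of all tested. No member reached a 2-fold difference, which 2.19% of all tested reached upward and 30.7% downward. The median log2 ratio was 0.12 over the 8 members and 0.29 over the 6 with the miR-15/16 seed, beside -0.69 over all 274, whose quartiles were -1.08 and -0.17. miR-497 was thus the member nearest to the middle of all known miRNAs.

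**Figure D2:**
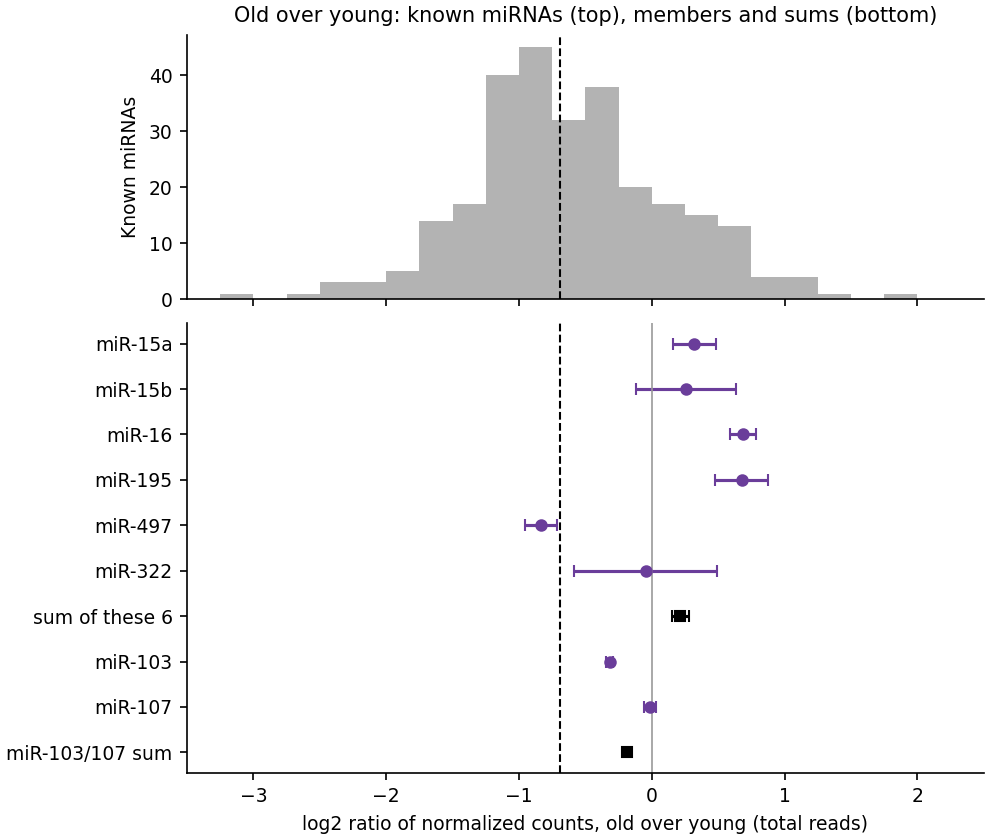
Log2 ratios of old over young normalized counts, scaled to total reads, as a histogram for the 274 known miRNAs tested (top) and with 95% counting intervals for the 8 members (circles) and the sums over each seed (squares). The dashed line is the median of all known miRNAs tested, -0.69, and miR-497 is the only member below it; scaling to that median puts miR-103 and the miR-103/miR-107 sum above 0.

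The zero of these ratios depends on the depth. Scaling by TMM factors or by DESeq2's size factors in place of total reads adds 0.69 to every log2 ratio, and leaving out the let-7 reads, which took a larger part of the old library, adds 0.37. With TMM factors 104 known miRNAs were called higher and 83 lower, in place of 27 and 181 with total reads, and without let-7 reads 58 were called higher and 129 lower. DESeq2's size factors set the median known miRNA to 0. On that scale the log2 ratios were 1.38 for miR-16, 1.37 for miR-195, 1.01 for miR-15a, 0.95 for miR-15b, 0.64 for miR-322, 0.68 for miR-107, 0.37 for miR-103 and -0.14 for miR-497. The directions of miR-16, miR-195, miR-15a and miR-497 were the same under all 4 other depths, while that of miR-103 was reversed by 3 of them.

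Over the 6 miR-15/16 seed members, reads summed to 3284 in the young library and 5613 in the old. That was 726 and 843 RPM, a log2 ratio of 0.22 (0.15 to 0.28). Within this sum the shares of the members differed between the libraries. miR-16 made up 37.0% of the summed reads in the young library (95% Wilson interval 35.4 to 38.7) and 51.3% in the old (50.0 to 52.7). miR-497 made up 35.9% (34.3 to 37.6) in the young library, level with miR-16, and 17.4% (16.4 to 18.4) in the old. miR-195 went from 8.74% (7.82 to 9.75) to 12.0% (11.2 to 12.9). The shares of miR-15a (14.2% and 15.3%), miR-15b (2.68% and 2.76%) and miR-322 (1.43% and 1.19%) had overlapping intervals in the 2 libraries. These shares are taken within a library and do not depend on its depth.

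**Figure D3:**
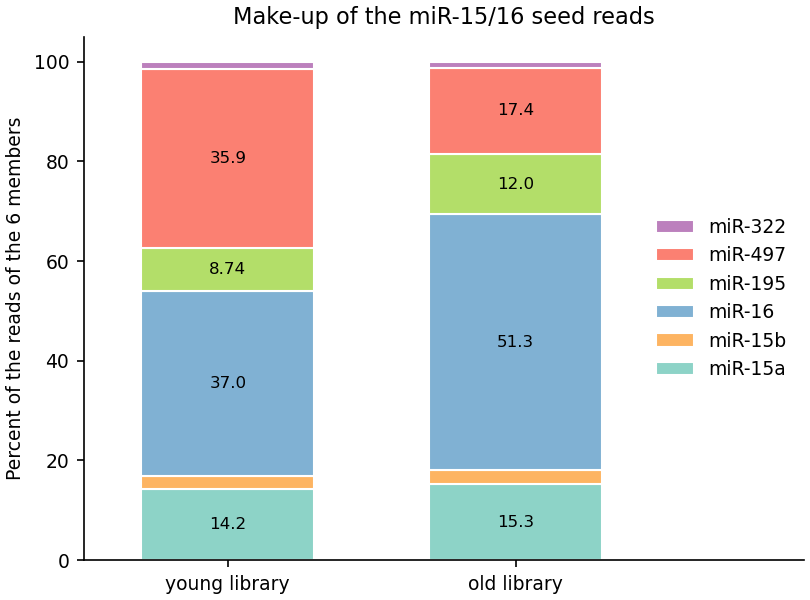
Share of each of the 6 miR-15/16 seed members in their summed same-start reads, in percent, for the young and the old library as stacked bars. miR-497 falls from 35.9% to 17.4% of the reads and miR-16 goes from 37.0% to 51.3%.

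Neighbours in the genome were compared within each library, which also removes the depth. miR-195 and miR-497 lie within the same stretch of chromosome 11, and miR-195 had 0.243 reads per miR-497 read in the young library and 0.692 in the old. Their log2 ratios differed by 1.51 (1.28 to 1.74), the widest gap among the 4 pairs compared. Counted from the mature tag alone, with 9 and 17 reads for miR-195, the gap was 0.95 (-0.25 to 2.15), and with the trend of all known miRNAs on GC content removed it was 1.24. miR-16 had 2.60 reads per miR-15a read in the young library and 3.36 in the old, a difference of 0.37 (0.18 to 0.56). Against miR-15b the difference was 0.43 (0.04 to 0.82), and 0.24 (-0.44 to 0.92) from the mature tags alone. For both pairs the reads of miR-16 come from either locus. GC content ran from 40.9% to 50% among the members, and over all known miRNAs tested the log2 ratio fell by 0.38 per 10 percentage points of GC. Its part in the single ratios was not tested beyond a linear correction, which left miR-16 at 0.58 and miR-497 at -0.77 and brought miR-15a to 0.04.

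miR-103 had 24625 same-start reads in the young library and 29077 in the old, a log2 ratio of -0.32 (-0.34 to -0.29) with total reads, which became 0.37 with TMM factors. miR-107 had 7216 and 10516 reads, with a log2 ratio of -0.01 (-0.06 to 0.03). The difference between these neighbours in sequence was 0.30 (0.25 to 0.35), free of depth and of GC content, which is 47.8% for both. Of the reads that tell the pair apart, miR-107 held 22.7% (22.2 to 23.1) in the young library and 26.6% (26.1 to 27.0) in the old. The tags that set this ratio are printed with the bases after position 21 in capitals.
miR-103: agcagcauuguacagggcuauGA
miR-107: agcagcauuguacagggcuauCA
shared: agcagcauuguacagggcuau

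The first of these had 17145 reads in the young library and 19679 in the old, and the second 4724 and 6920. The shared tag of 21 bases had 17087 and 22994 reads, so it was nearly as abundant as the mature miR-103 in the young library and more abundant in the old. All tags that fit both members made up 40.4% of the summed reads in the young library and 42.7% in the old. With them, miR-103/miR-107 summed to 53416 and 69077 reads, or 11809 and 10374 RPM, a log2 ratio of -0.19 (-0.20 to -0.17) with total reads and 0.50 with TMM factors. The ratio of the miR-15/16 seed sum thus lay 0.40 above that of miR-103/miR-107 (0.34 to 0.47), whichever depth is used. There were 16.3 miR-103/miR-107 reads for each miR-15/16 seed read in the young library and 12.3 in the old.

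The members differed in how much of them the mature tag held. It made up 61.2% of the same-start reads of miR-16 in the young library and 59.8% in the old. For miR-103 it made up 69.6% and 67.7%, and for miR-107 65.5% and 65.8%. These 2 members lack the shared tags, which hold every end before base 22, so their shares cannot be ranked with the others. Of the summed reads of the pair, the mature miR-103 tag held 32.1% and 28.5%, and the mature miR-107 tag 8.84% and 10.0%. For miR-15b the mature tag held 30.7% and 34.2%, level with a tag of 20 bases at 30.7% and 32.9%. For the remaining members another end was more common, and the mature tag held 24.0% and 20.6% of miR-15a, 17.0% and 14.9% of miR-322, 15.6% and 18.5% of miR-497, and no more than 3.14% and 2.52% of miR-195. The leading tags of the members for which it was not the mature one are printed here, with the seed in capitals, because counts of the mature tag alone miss most of these miRNAs.
miR-15a, 21 bases: uAGCAGCAcauaaugguuugu
miR-195, 22 bases: uAGCAGCAcagaaauauuggca
miR-497, 21 bases: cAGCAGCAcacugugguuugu
miR-322, 20 bases: cAGCAGCAauucauguuuug

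The leading tag of miR-195 had 130 reads in the young library and 271 in the old, and that of miR-15a 226 and 436. The leading tag of miR-497 had 790 and 580 reads, a log2 ratio of -1.004, while its mature tag of 22 bases had 184 and 180, a log2 ratio of -0.59. Tags of 21 bases thus held 69.3% (66.6 to 71.9) of miR-497 in the young library and 62.7% (59.6 to 65.6) in the old. For miR-322 the tag of 20 bases had 23 and 38 reads. miR-15b was spread over several lengths, with 31.8% and 34.8% of its reads at 20 bases and 34.1% and 35.5% at 22. The sum of miR-103 and miR-107 peaked at 21 and 23 bases, with 32.8% and 46.5% of its reads in the young library and 34.1% and 45.2% in the old.

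**Figure D4:**
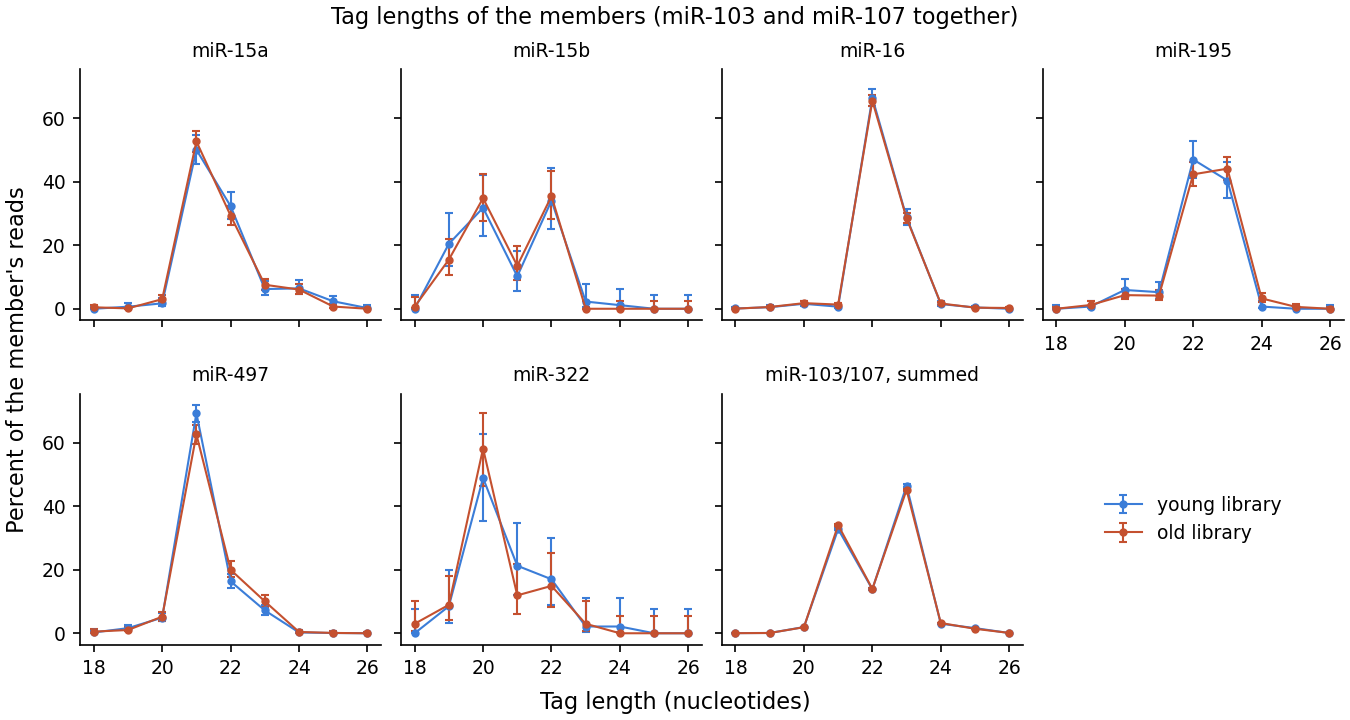
Share of same-start reads by tag length in nucleotides, in percent of each member's reads in the young and the old library, with 95% Wilson intervals; miR-103 and miR-107 share a panel because tags under 22 nucleotides fit both. The peak lies at 20 nucleotides for miR-322, 21 for miR-15a and miR-497 and 22 for miR-16, and the 21-nucleotide share of miR-497 is 69.3% in the young library and 62.7% in the old; the wide intervals of miR-322, with 48.9% and 58.2% at 20 nucleotides, overlap.

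Bases at the 3′ end that the precursor does not hold were counted as added. Added A was found on 22.3% of miR-195 reads in the young library and 25.2% in the old, on 10.0% and 11.7% of miR-16, on 10.1% and 10.2% of miR-15a, and on 4.75% and 6.67% of miR-497. Added U was found on 10.2% (9.81 to 10.6) of miR-103 reads in the young library and 12.1% (11.7 to 12.5) in the old. On miR-107 it was found on 8.72% (8.09 to 9.39) and 9.40% (8.85 to 9.97). Both leave out the tags that fit both members, and over all reads of the pair added U was found on 8.69% and 9.84%. Among the miR-15/16 seed members, added U was found on 5.57% and 4.42% of miR-15a reads, 2.27% and 2.58% of miR-15b, 0.905% and 0.798% of miR-16, and 1.39% and 1.19% of miR-195. The hairpins of miR-103 and miR-107 go on with A after the mature sequence, so an A added there counts as part of the precursor. An A added before base 22 is reached gives a tag that fits both, which is counted in their sum alone. In that sum added A was found on 2.03% of the reads in the young library and 2.21% in the old. Added U on miR-497 went from 4.07% (3.08 to 5.35) to 6.87% (5.45 to 8.63), close to its added A, and its reads that lie in the precursor from 88.9% (87.0 to 90.6) to 84.4% (82.0 to 86.6). For added U the intervals of the 2 libraries were apart for miR-103 and, narrowly, for miR-497, and overlapped for the other members.

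**Figure D5:**
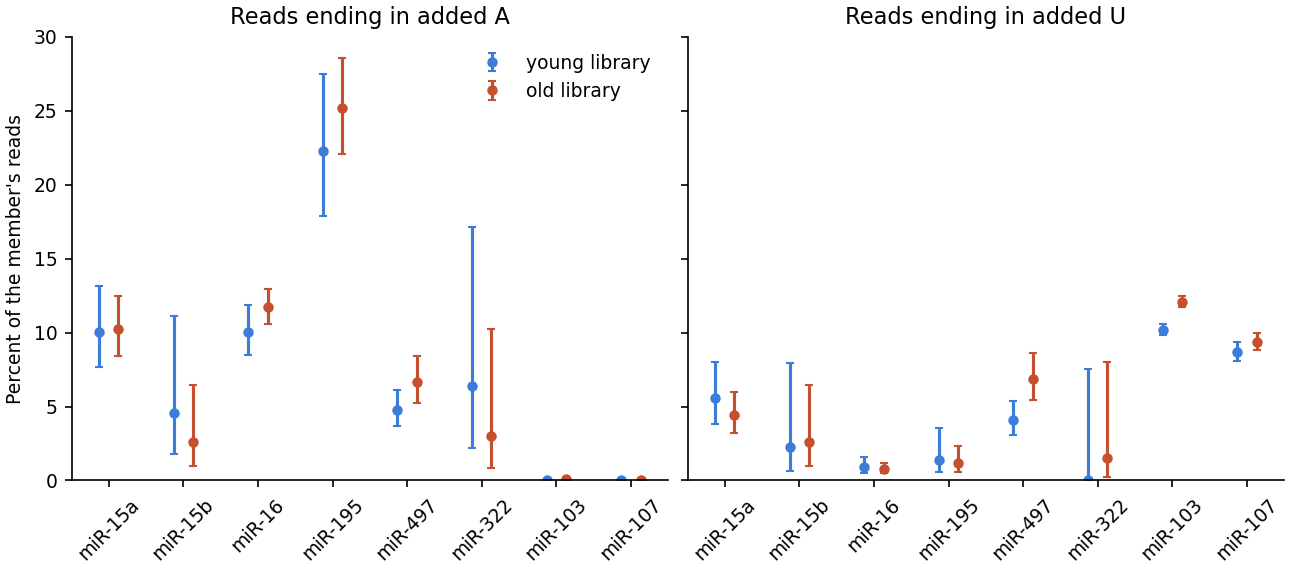
Share of same-start reads that end in an added A (left) or U (right) outside the precursor, in percent of each member's reads in the young and the old library, with 95% Wilson intervals. Added A is most frequent on miR-195, at 22.3% and 25.2%, and added U on miR-103, at 10.2% and 12.1%. The shares of miR-103 and miR-107 leave out the tags that fit both.

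The 5′ end, which sets the seed, was nearly fixed. Among reads that start within 2 bases of the mature start, those at the mature start itself made up 99.1% to 100% for miR-15a, miR-16, miR-195 and the sum of miR-103 and miR-107 in both libraries, and 98.9% and 100% for miR-15b. For miR-322 they made up 90.4% (79.4 to 95.8) of its reads in the young library and 94.4% (86.4 to 97.8) in the old, and for miR-497 95.9% and 95.1%. miR-497 had 4.14% (3.17 to 5.41) of its reads in the young library and 4.88% (3.72 to 6.37) in the old starting 1 base later, which gives the seed GCAGCAC. Of miR-322, 4 reads in the young library and 2 in the old started 1 base earlier, 7.69% and 2.82% with overlapping intervals, and 1 and 2 reads started 1 base later. Reads of miR-103 and miR-107 that start 1 base earlier carry the miR-15/16 seed, AGCAGCA, and there were 23 of these in the young library and 31 in the old, 0.0430% and 0.0448% of the pair's reads.

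Over all tags, 4165 reads in the young library and 7107 in the old had AGCAGCA at bases 2 to 8, and the 6 members held 78.8% and 79.0% of them. Tags at 1 changed base from another known miRNA held 7.83% and 7.15%. Most of these had the start of miR-29a with the change C6G, the base of miR-29a first, with 269 reads in the young library and 407 in the old. miR-29a itself had 348171 and 446837 same-start reads. Whether the change arose in the RNA or in sequencing was not tested. The first 18 bases of the changed start are shown because with C6G they carry the miR-15/16 seed.
miR-29a with C6G: uAGCAGCAucugaaaucg

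The seed GCAGCAU was carried by 57550 and 76913 reads, of which miR-103 and miR-107 held 92.8% in the young library and 89.8% in the old. Tags at 1 changed base from them made up 5.33% and 6.79%. The share of changed tags, which same-start counts leave out, was thus larger in the old library. Over all reads with this seed the log2 ratio with total reads was -0.14 (-0.16 to -0.12), beside -0.19 for the sum of miR-103 and miR-107. Tags changed inside the seed are not among those reads, and their part in the miR-103/miR-107 ratio was not tested.

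Other products of the same hairpins and of the miR-322 cluster were counted alike, except the opposite strand of miR-195, which was not counted. Their log2 ratios are scaled to total reads. TMM factors or size factors add 0.69 to each, which makes that of miR-503 positive. The opposite strand of miR-322, miR-322*, had 648 reads in the young library and 952 in the old, a log2 ratio of -0.00 (-0.15 to 0.14), far above the 47 and 67 reads of miR-322 itself. miR-503, made from the same cluster, has the sequence of the miR-15/16 family up to base 7 and another base at position 8, and it had 205 and 248 reads with a log2 ratio of -0.28 (-0.55 to -0.02). Both are printed with bases 2 to 8 in capitals.
miR-322*: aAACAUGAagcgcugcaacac
miR-503: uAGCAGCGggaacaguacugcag

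Scaled to total reads, the opposite strands of the Dleu2 hairpins were lower in the old library. miR-16-1* had 90 and 69 reads, a log2 ratio of -0.94 (-1.39 to -0.49), and miR-15a* had 23 and 18, a log2 ratio of -0.91 (-1.80 to -0.02), where miR-16 and miR-15a themselves had positive ratios. Both negative ratios lay within the quartiles of all known miRNAs tested, -1.08 and -0.17. TMM factors or size factors add 0.69 to each of them, and a difference under those depths was not tested. The difference from the partner was -1.63 (-2.09 to -1.17) for miR-16-1* and -1.23 (-2.14 to -0.33) for miR-15a*. The reads of miR-16 come from either locus, so the difference for miR-16-1* is not one within a single hairpin. The opposite strands are richer in GC, at 50% and 59.1%, than their partners, at 45.5% and 40.9%, and the linear GC trend of all known miRNAs would give differences of -0.17 and -0.68. The opposite strands of the miR-15b, second miR-16, miR-497, miR-103 and miR-107 hairpins had at most 3 reads in either library.

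miRNAs that mark cell types of the brain and of blood, listed from general knowledge, are set beside these ratios. miR-16 and miR-451 are both abundant in red blood cells. The 3 red blood cell miRNAs, miR-451, miR-144 and miR-486, summed to 604 RPM in the young library and 322 in the old, a log2 ratio of -0.91, and 0 of 3 were higher in the old library. Among all 274 known miRNAs tested 20.1% were higher and the median log2 ratio was -0.69, and this list, like the neuronal and oligodendrocyte lists, lay within the quartiles of all tested. Neuronal miRNAs (miR-124, miR-9 and miR-128) had a summed log2 ratio of -0.99 and those of oligodendrocytes (miR-219-5p, miR-219-3p and miR-338-3p) one of -0.62, each with 0 of 3 higher. The endothelial miR-126-3p and miR-126-5p had one of -0.08, with 1 of 2 higher. miR-143, of smooth muscle and pericytes, had a log2 ratio of -0.86, and miR-145 was not analysed here. miR-223, of myeloid cells, had 4 and 5 reads. The neuronal markers were abundant in both libraries, at 66383 and 33501 RPM. The part of cell types in the ratios of the members was not tested.

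With 2 libraries no correlation across samples exists, so likeness of pattern was measured as the distance between log2 ratios, over 179 known miRNAs with at least 100 reads in each library. Nearest to miR-16 lay miR-26a (log2 ratio 0.69), miR-195 (0.68) and miR-1 (0.64), and nearest to miR-103 lay miR-708 (-0.33), miR-99b (-0.33) and miR-380-3p (-0.34). miR-195, the member closest to miR-16 in sequence, was thus also among the closest in ratio, at a distance of 0.01, less than the counting error of 0.10 on miR-195.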

How the data were processed

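Small RNAs of 18 to 30 nucleotides were isolated by gel from 10 µg of total RNA of each brain and sequenced. The authors aligned reads to mm9 with SOAP, removed the 3′ adapter, and deposited raw counts of reads per distinct sequence, without normalization, so sequences that did not align are not included.

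From these counts, same-start reads were summed as described above, with tags holding undetermined bases left out, and scaled to total reads. The totals still held the reads with undetermined bases, which were a larger share of the young library. With such tags placed and counted, the log2 ratio of miR-103 was -0.37 in place of -0.32. The pair of counts in the study's list of known miRNAs was used only to find each tag; 347 miRNAs were assigned and 274 tested. P-values come from DEGseq's formula for the MA-plot-based random sampling model, are two-sided and carry a Benjamini-Hochberg adjustment; edgeR's quasi-likelihood test could not be fitted with 1 library per age. Counts of 0 entered ratios as 0.5. Intervals are 95% normal on the log scale or Wilson, for counting error only. The members, lists and tests were chosen with earlier results of these data known. Named were all 8 members, and those of the other counted products of their loci with at least 10 reads. The 3 miRNAs nearest in ratio to miR-16 and to miR-103 were also named, and tags, seeds and markers were described besides. Alternatives changed depth, counting, read minimum, GC correction, shared tags and test. The random sampling model was tried on simulated counts of 11328 starts, 200 of them changed 2-fold. It called 21.5% of the changed starts, and 5.48% of the unchanged ones had an unadjusted p under 0.05 in this model. The simulated counts held counting error alone, so they cannot show how the model behaves with variation between mice or libraries. Python 3.11.15, numpy 2.4.6, scipy 1.17.1, R 4.3.3, edgeR 4.0.16 and DESeq2 1.42.0 (factors only) were used. Positions come from perfect matches in NCBIM37 and its gene annotation.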

Additional observations from a re-analysis of the deposited data

How the results depend on the processing

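No paired analysis was possible because each age had 1 library, and for the same reason no library could be left out. Scaled to total reads, the old library had 3 members called higher and 2 called lower. TMM factors or size factors from DESeq2 gave 7 and 1, and leaving out let-7 reads gave 6 and 1, since these depths move every ratio upward. The mature tag alone gave 1 higher. An assumed biological coefficient of variation of 0.1 left 1 lower, and 0.2 or 0.4 left 0 higher and 0 lower by edgeR's exact test, so the calls hold for read counting only. miR-103 reversed to 0.37 with either factor and to 0.055 without let-7 reads.

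The summed miR-15/16 seed log2 ratio, 0.22, was 0.15 with known-miRNA reads as depth, 0.90 with TMM factors, 0.91 with size factors, 0.59 without let-7 reads, 0.44 with the mature tag alone, 0.15 with undetermined bases included and 0.10 with a GC correction. The miR-103/miR-107 sum, -0.19, was -0.25, reversed to 0.50, 0.50 and 0.19, and was -0.28, -0.24 and -0.21 under these alternatives in the same order. It was -0.22 with tags that lie in the precursor and -0.24 without shared tags, an alternative chosen after seeing the data. The difference between the sums, 0.40, was 0.71 with the mature tag alone and 0.30 with the GC correction. The pair gaps kept their direction under the alternatives, also chosen after seeing the data, but the interval of miR-16 against miR-15b reached 0 under 4 of 7 and that of miR-195 against miR-497 under 1 of 7. miR-15a lost its call with the mature tag, the GC correction and each assumed variation, miR-195 with the mature tag and an assumed variation of 0.2 or 0.4, and miR-103 with each assumed variation. miR-107 was called lower with known-miRNA depth (-0.08) and with undetermined bases included (-0.07), and higher with the other 3 depths and with shared tags split in proportion (0.04). miR-15b was called higher with TMM factors (0.95), with size factors (0.95) and without let-7 reads (0.63). miR-322 was called higher with TMM factors (0.64) and with size factors (0.64). Counts under 100 reads, as for miR-15b and miR-322 in the young library, also limit what these members can show.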
